A study of Homo sapiens with 6 samples.

Results

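The SLC25 genes encode the mitochondrial carriers, a family of small membrane proteins that move nucleotides, phosphate, carboxylates, amino acids, cofactors and metal ions across the inner mitochondrial membrane. They were read here in A549, a line of lung adenocarcinoma cells, after lactic acid or vehicle. Members were all rows of the deposited count table whose symbol is SLC25A followed by a number. There were 48 of them among 23827 rows, all protein-coding in GENCODE release 29, and 43 were expressed highly enough to be among the 15474 genes tested.

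A carrier folds from a repeat of similar modules, each with a conserved signature motif, and works by opening to one side of the inner membrane and then to the other, usually exchanging its substrate for another. The family thereby couples the cytosol to respiration: ADP and phosphate enter, ATP leaves, reducing equivalents pass through the malate-aspartate shuttle, and citrate leaves for lipid synthesis. Carriers are made in the cytosol and reach the inner membrane through the translocase TOM and the carrier translocase TIM22.

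There were 6 RNA-seq libraries of polyadenylated RNA. In 3 of them the medium of the A549 cells held 20 mM lactic acid for 24 h, and the other 3 came from control cultures given phosphate-buffered saline (PBS) in equal amount and for as long. The labels call the cultures biological replicates and name no allele, transgene or other agent in either group. The study's title refers to ferroptosis, in which iron-driven peroxidation of lipids kills a cell, and the comparison asks which carrier transcripts differed after lactic acid. Lactate and the acid load were applied together, so their parts cannot be told apart.

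Library totals ran from 33492831 to 42938870 counts, and the SLC25 genes took 0.254% to 0.272% of them. Keratin 8 at 1782 to 1964 CPM (counts per 1000000, scaled by TMM factors) and ALDH1A1 at 4054 to 5185 CPM marked the cells as epithelial with high detoxification genes, and of the 2 genes listed as lost from the genome of A549 cells CDKN2A had at most 0.0705 CPM, while MTAP had 5.69 to 7.49 CPM in every library and so went against that list. EPCAM was low at 1.12 to 3.83 CPM. Of 4 epithelial markers, KRT7, KRT18 and EPCAM fell, and of 3 tested fibroblast genes among 4 listed COL1A1, DCN and COL3A1 fell. The summed fibroblast markers went from 106.7 to 119.7 CPM in PBS to 76.8 to 83.9 CPM in lactic acid, with COL1A1 making up most of them and PDGFRB at 0.309 CPM or less. Endothelial markers summed to at most 0.24 CPM, and the leukocyte sum of 4.19 to 6.66 CPM was nearly all CD14, with CD3E at 0. Whether these shifts had a part in the carrier results was not tested.

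Per length of transcript, 3 carriers stood far above the rest in A549 cells. SLC25A5, the ADP/ATP translocase of dividing cells, held 259.3 to 281.4 FPKM (fragments scaled to transcript length and sequencing depth, as the authors deposited them). SLC25A6, the ubiquitous ADP/ATP translocase, held 188.5 to 216.1 FPKM, and SLC25A3, the phosphate carrier, held 157.4 to 198.7 FPKM in 5 libraries and 364.9 in the third lactic acid library. Together these 3 genes made up 58.3% to 65.1% of the family's FPKM and 51.9% to 53.2% of its counts. The ranges of SLC25A3 and SLC25A6 overlapped, while SLC25A5 was above SLC25A6 in every library.

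The next tier was separate from these. SLC25A39, a glutathione importer, held 58.3 to 68.9 FPKM, SLC25A1, the citrate carrier, 36.3 to 41.9, and SLC25A37, the iron importer mitoferrin 1, 36.7 to 41.4. The ranges of SLC25A1 and SLC25A37 overlapped. In all, 16 members reached 10 FPKM in every library, 37 reached 1 FPKM in every library and 38 did so in at least 3.

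At the low end were carriers known from other tissues. SLC25A47 had no count in any library, and SLC25A31, the testis ADP/ATP translocase, had 0 counts in every PBS library and 0, 2 and 3 after lactic acid. SLC25A2, an ornithine carrier, had 0 to 3 counts a library, SLC25A52, an NAD+ carrier, 0 to 3, and SLC25A48 0 to 4. These 5 genes were not tested. A count of 0 cannot tell absence from a level of under 3 counts a library.

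**Figure D1:**
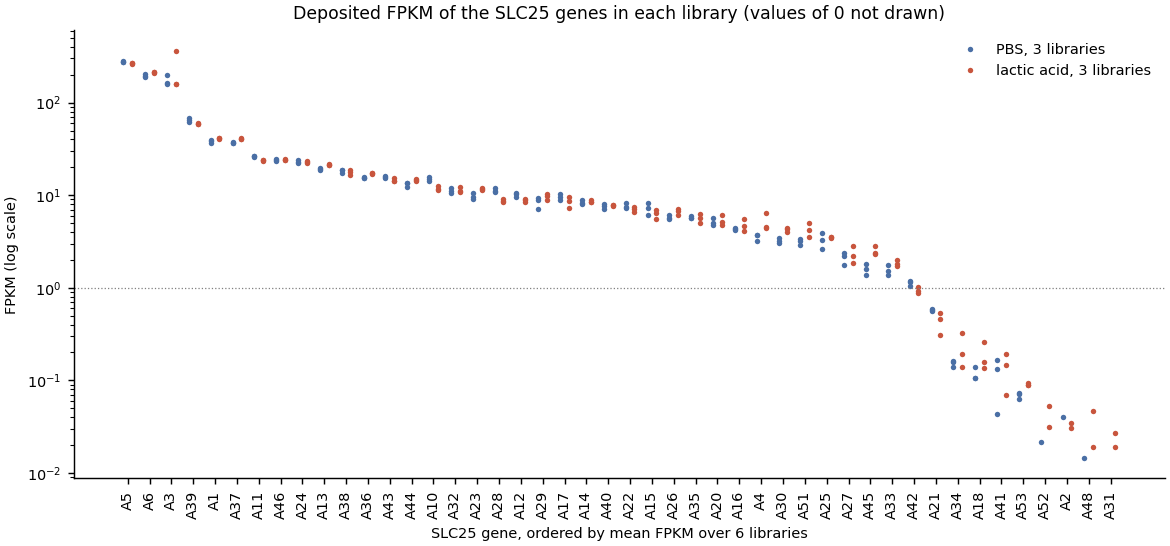
Deposited FPKM of the SLC25 genes reported here, on a log axis, ordered by their mean over 6 libraries, with PBS libraries in blue and lactic acid libraries in red, and values of 0 left out (SLC25A47 has no point). SLC25A5, SLC25A6 and SLC25A3 lead, 1 lactic acid library stands apart at 364.9 FPKM for SLC25A3, and the points fall steeply below the dotted line at 1 FPKM after SLC25A42.

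Lactic acid changed many carriers by small amounts, more of them upward. Of the 43 tested members, 14 rose and 3 fell by edgeR's quasi-likelihood test, where a call needed a Benjamini-Hochberg adjusted p, over all 15474 genes, under 0.05. That is 32.6% rising against 18.7% of all tested genes, and 6.98% falling against 16.7%. The rises were 1.10-fold to 1.65-fold with a median of 1.16-fold, against 1.22-fold for all genes that rose, and the falls were 1.12-fold to 1.25-fold. No called member reached 2-fold, and SLC25A45 alone passed 1.5-fold.

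The family as a whole moved little. Its summed level was 2546, 2550 and 2521 CPM in the PBS libraries and 2707, 2742 and 2682 CPM in the lactic acid libraries. The groups did not overlap, with means of 2539 ± 15.7 and 2710 ± 30.0 CPM (SD, n = 3 per group). Summed FPKM did overlap, at 1069, 1138 and 1089 in PBS and 1086, 1096 and 1284 in lactic acid. The median log2 fold change of the tested members was 0.087, against 0.00236 over all tested genes, and it was positive under every scaling tried. The lactic acid libraries were all above the PBS libraries for 17 members (39.5%, against 24.4% of all tested genes) and all below for 8 (18.6%, against 23.1%). In bulk RNA, a lower share of cells making a transcript and less of it per cell cannot be told apart.

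The split of calls differed with the scaling and on the FPKM scale. With library totals in place of TMM factors 13 members rose and 5 fell, while over all 15474 genes rises went from 2892 to 2528 and falls from 2584 to 2939. With limma-trend on log2(FPKM + 1), which changes the unit, the test and the filter together, 9 of 38 tested members rose and 5 fell, beside 1803 and 2533 of 12145 genes. The 2 added falls with library totals were SLC25A11 and SLC25A39.

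**Figure D2:**
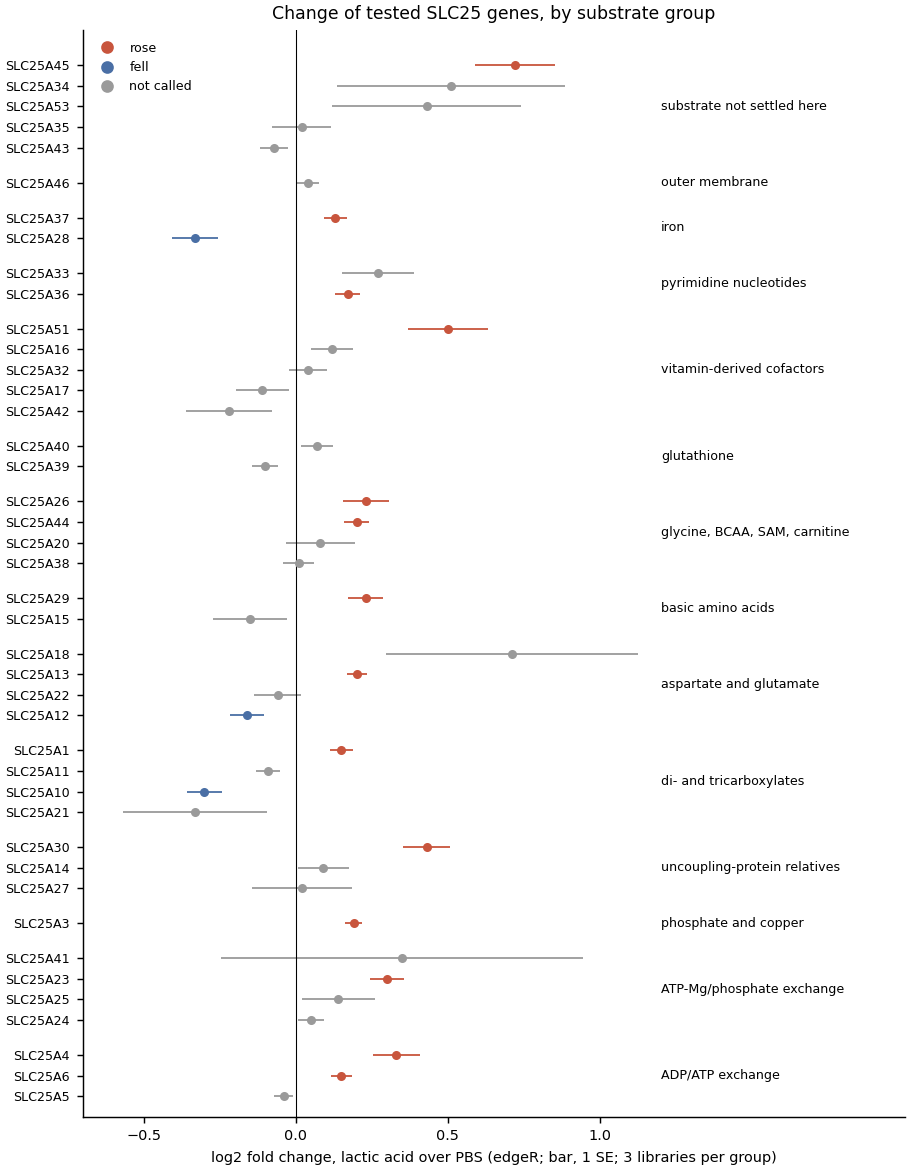
Log2 fold changes of the tested SLC25 genes reported here, lactic acid over PBS, from edgeR with bars of 1 SE (3 libraries per group), sorted within substrate groups and coloured by call. Red points (rose) appear in 12 of the 14 groups, blue points (fell) are SLC25A28, SLC25A10 and SLC25A12, and wide bars mark genes with few counts such as SLC25A18 and SLC25A41.

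ADP/ATP translocases exchange cytosolic ADP for ATP made in the matrix. Of the 3 tested, 2 rose, while SLC25A5, the most abundant per length, did not. By CPM, SLC25A6 was above SLC25A5 in every library. The coding sequences of the 3 are each 897 bases long and of 77.3% to 78.8% identity to each other in GENCODE. The lines below show the first signature motif with its flanks in the 3 genes. Most members hold a match to this motif, and the bases in and around it show how reads can tell these transcripts apart. Capitals mark the 6 signature codons, from a proline codon to a basic codon.
SLC25A4: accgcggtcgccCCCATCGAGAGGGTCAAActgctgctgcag
SLC25A5: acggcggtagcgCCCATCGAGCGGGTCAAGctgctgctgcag
SLC25A6: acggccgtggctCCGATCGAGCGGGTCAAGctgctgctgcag
These stretches lie at chr4:185143442-185143483 on the plus strand, chrX:119468585-119468626 on the plus strand and chrX:1391899-1391940 on the minus strand (GRCh38), and begin 4 codons before codon 28 of each coding sequence.

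SLC25A6 stood at 414.6, 445.8 and 419.0 CPM in PBS and 468.5, 482.6 and 472.3 CPM in lactic acid. All 3 lactic acid libraries were above all 3 PBS libraries, a 1.11-fold rise (log2 fold change 0.15, SE 0.034, adjusted p = 0.00425 by edgeR). The search for near-identical copies left out Y-chromosome entries of genes shared by X and Y. It could not show a Y copy of SLC25A6, so the count of that gene is uncertain. SLC25A4, the translocase of heart and muscle, stood at 16.2, 14.6 and 14.0 CPM in PBS and 18.5, 19.5 and 18.3 CPM in lactic acid. It was again higher in every treated library, a 1.26-fold rise (log2 fold change 0.33, SE 0.0768, adjusted p = 0.00561).

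SLC25A5 had 378.0, 376.8 and 370.1 CPM in PBS and 370.9, 366.9 and 357.1 CPM in lactic acid. The groups overlapped and no change was called (log2 fold change −0.04, SE 0.0301, adjusted p = 0.347). The summed level of the 4 translocases was 803.1 to 837.2 CPM in PBS and 847.8 to 869.2 CPM in lactic acid. On the log2(FPKM + 1) scale SLC25A6 was not called (0.12, adjusted p = 0.0501 by limma), and SLC25A4 lost its call only when that scale had no filter (0.42, adjusted p = 0.0820).

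SLC25A3 brings phosphate and copper into the matrix and rose by a small, even step. Its levels were 534.6, 520.3 and 520.5 CPM in PBS and 598.8, 598.0 and 597.7 CPM in lactic acid. The groups were apart, with a 1.14-fold rise (log2 fold change 0.19, SE 0.0269, adjusted p = 0.000237 by edgeR). The deposited FPKM did not show the same step: 159.2, 198.7 and 163.5 in PBS, then 158.1, 157.4 and 364.9 in lactic acid, and limma-trend on log2(FPKM + 1) gave 0.27 with an adjusted p of 0.509. The third lactic acid library decided that value, while its count of SLC25A3 was like that of the other treated libraries.

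The ATP-Mg/phosphate carriers adjust the adenine nucleotide pool of the matrix, and all but SLC25A41 are switched by calcium. SLC25A23 had 32.1, 37.0 and 33.1 CPM in PBS and 40.0, 43.4 and 42.1 CPM in lactic acid. It was the 1 member of the group to rise, without overlap (1.23-fold, log2 fold change 0.30, SE 0.0561, adjusted p = 0.00154 by edgeR). The more abundant SLC25A24 stood at 106.2, 98.1 and 100.5 CPM in PBS and 104.5, 108.7 and 102.3 CPM in lactic acid, and the groups overlapped (adjusted p = 0.386).

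SLC25A25 had a log2 fold change of 0.14 (SE 0.119) and 2.60 to 3.88 FPKM, and no call. SLC25A41 had 3 to 13 counts a library, too few to place its change (log2 fold change 0.35, SE 0.595).

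Among the relatives of uncoupling proteins, SLC25A30 rose and its near neighbours were not called. SLC25A30 stood at 12.6, 11.6 and 12.9 CPM in PBS and 17.2, 16.0 and 17 CPM in lactic acid. It was higher in every treated library by 1.35-fold (log2 fold change 0.43, SE 0.0779, adjusted p = 0.00114 by edgeR), the third largest rise in the family. The gene lies at chr13:45393316-45418455 on the minus strand.

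SLC25A14 had 14.0, 12.3 and 13.9 CPM in PBS and 14.3, 14.9 and 13.6 CPM in lactic acid, with overlap (adjusted p = 0.460). SLC25A27 held 1.77 to 2.84 FPKM with a log2 fold change of 0.02 (SE 0.165). The coding sequences of SLC25A14 and SLC25A30 are 72.3% identical, and the ratio of their counts went from 1.08 ± 0.0257 to 0.852 ± 0.0698 (SD, n = 3 per group).

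The carriers of di- and tricarboxylates moved apart: the citrate carrier rose, the dicarboxylate carrier fell, and the others were not called. SLC25A1 exports citrate, the source of cytosolic acetyl-CoA. It had 63.3, 66.7 and 67.4 CPM in PBS and 71.9, 73.1 and 73.8 CPM in lactic acid, without overlap, a 1.11-fold rise (log2 fold change 0.15, SE 0.0365, adjusted p = 0.00813 by edgeR). SLC25A10 exchanges malate or succinate for phosphate, and had 28.1, 29.1 and 30.3 CPM in PBS and 22.3, 25.1 and 23.8 CPM in lactic acid. Every treated library was lower, a 1.23-fold fall (log2 fold change −0.30, SE 0.0584, adjusted p = 0.00208). SLC25A10 shares 46.6% of its exon bases with AC139530.2 on the same strand, a gene with 0 counts in the table.

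SLC25A11, the oxoglutarate/malate carrier of the malate-aspartate shuttle, was lower in all treated libraries at 23.5 to 24.3 FPKM against 26.2 to 26.7. It missed the threshold on counts (log2 fold change −0.09, SE 0.0397, adjusted p = 0.101) and passed it with limma-trend on log2(FPKM + 1) (−0.14, adjusted p = 0.0135). SLC25A21, the oxoadipate carrier, held 0.312 to 0.594 FPKM (log2 fold change −0.33, SE 0.237). Summed over the 4 genes, the group stayed level at 147.0 to 149.8 CPM in PBS and 145.6 to 147.6 CPM in lactic acid. On the log2(FPKM + 1) scale the rise of SLC25A1 was not called (0.12, adjusted p = 0.0585). SLC25A11 shares 9.1% of its exon bases with RNF167 on the opposite strand, which had a mean of 2719.3 counts against 1860.8. SLC25A21 shares 13.0% with PAX9, also on the opposite strand, at 166.7 counts against 55.2.

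The aspartate/glutamate carriers, also of the malate-aspartate shuttle, likewise went in opposite directions. SLC25A13, citrin, stood at 62.4, 63.6 and 64.0 CPM in PBS and 73.6, 72.5 and 72.2 CPM in lactic acid. It rose 1.15-fold without overlap (log2 fold change 0.20, SE 0.033, adjusted p = 0.000644 by edgeR). SLC25A12, aralar, had 33.0, 32.3 and 29.3 CPM in PBS and 27.0, 28.8 and 28.7 CPM in lactic acid. It was lower in every treated library by 1.12-fold (log2 fold change −0.16, SE 0.0563, adjusted p = 0.0437).

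The call of SLC25A12 was fragile: leaving out PBS library 1 or 2, or any treated library, gave an adjusted p of 0.0637 to 0.155, and DESeq2 gave 0.0592 and limma-voom 0.0632. It also shares 181 exon bases, 3.5% of its own, with METAP1D on the opposite strand, and the strand setting of the counting is not given in the sources used here. The glutamate carriers were not called: SLC25A22 held 6.60 to 8.34 FPKM (log2 fold change −0.06, SE 0.076), and SLC25A18 had 9 to 24 counts a library (log2 fold change 0.71, SE 0.414).

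The coding sequences of SLC25A12 and SLC25A13 are 72.2% identical over their aligned bases.

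Of the carriers of basic amino acids, SLC25A29, which takes arginine and lysine, rose. It had 29.7, 33.9 and 34.6 CPM in PBS and 37.6, 39.8 and 38.2 CPM in lactic acid, without overlap, a 1.18-fold rise (log2 fold change 0.23, SE 0.0577, adjusted p = 0.00819 by edgeR). It was not called on the log2(FPKM + 1) scale (0.17, adjusted p = 0.211). SLC25A15, the ornithine carrier of the urea cycle, held 5.58 to 8.34 FPKM and was not called (log2 fold change −0.15, SE 0.121). It has 3 pseudogenes of at least 95% identity over 252 to 289 bases, so its counts are uncertain.

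Carriers of other amino acid compounds gave 2 rises of 4. SLC25A44, of branched-chain amino acids, had 45.7, 49.4 and 48.9 CPM in PBS and 56.3, 54.0 and 54.8 CPM in lactic acid. It rose 1.15-fold without overlap (log2 fold change 0.20, SE 0.0406, adjusted p = 0.00283 by edgeR), and lost the call only on the unfiltered log2(FPKM + 1) scale (adjusted p = 0.0637). SLC25A26 imports S-adenosylmethionine, the methyl donor, and had 12.6, 13.3 and 13.0 CPM in PBS and 15.4, 14.6 and 15.6 CPM in lactic acid. Its groups did not overlap (1.17-fold, log2 fold change 0.23, SE 0.0747, adjusted p = 0.0344).

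The call of SLC25A26 was lost with library totals (adjusted p = 0.0546), DESeq2 (0.0509), no filter (0.0563), limma-trend on log2(FPKM + 1) (0.0635) and 5 of the 6 left-out libraries, all but the second lactic acid library (0.0517 to 0.109). It shares 15.5% of its exon bases with LRIG1 on the opposite strand, which had a mean of 174.0 counts against 523.3. SLC25A38, a glycine carrier needed for heme, had 41.4, 37.7 and 40.9 CPM in PBS and 42.1, 40.6 and 38.2 CPM in lactic acid, with overlap (adjusted p = 0.879). A pseudogene matches SLC25A38 at 96.7% over 847 bases, which leaves its count uncertain. SLC25A20, which imports acylcarnitines for fatty acid oxidation, held 4.72 to 6.09 FPKM (log2 fold change 0.08, SE 0.113).

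The glutathione carriers, of interest to ferroptosis because glutathione feeds the repair of lipid peroxides, were not called. SLC25A39, the fourth most abundant carrier per length, had 97.8, 107.8 and 101.1 CPM in PBS and 92.9, 97.7 and 94.8 CPM in lactic acid. Every treated library was lower, if by little (log2 fold change −0.10, SE 0.0428, adjusted p = 0.0826 by edgeR). It passed the threshold with library totals (adjusted p = 0.0422), without the first PBS library (−0.14, adjusted p = 0.0335) and on both filtered FPKM scales (0.0451 with a pseudocount of 1 and 0.0458 with 0.1). SLC25A40 held 7.07 to 7.99 FPKM (log2 fold change 0.07, SE 0.0529).

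For iron, the metal that gives ferroptosis its name, the mitoferrins moved in opposite directions. SLC25A37, mitoferrin 1, had 146.8, 140.4 and 143.8 CPM in PBS and 157.7, 161.8 and 153.4 CPM in lactic acid, without overlap. It rose 1.10-fold (log2 fold change 0.13, SE 0.0368, adjusted p = 0.0147 by edgeR), and lost the call without the second PBS library (adjusted p = 0.0618) or the second lactic acid library (0.0708). SLC25A28, mitoferrin 2, at chr10:99610522-99620609 on the minus strand, had 16.6, 18.5 and 16.7 CPM in PBS and 13.4, 13.6 and 14.2 CPM in lactic acid.

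Every treated library was below every control library for SLC25A28, a 1.25-fold fall (log2 fold change −0.33, SE 0.0761, adjusted p = 0.00591). Per length, SLC25A37 was above SLC25A28, at 36.7 to 41.4 FPKM against 8.53 to 12.1. The sum of both was 158.9 to 163.4 CPM in PBS and 167.6 to 175.5 CPM in lactic acid.

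Among carriers of vitamin-derived cofactors, SLC25A51, which brings NAD+ into the matrix, rose and the other 5 tested were not called. SLC25A51 had 5.19, 4.63 and 4.46 CPM in PBS and 7.75, 6.49 and 5.90 CPM in lactic acid, or 156 to 177 counts against 221 to 276. It was higher in every treated library by 1.41-fold (log2 fold change 0.50, SE 0.132, adjusted p = 0.0124 by edgeR), but without the first lactic acid library the value was 0.38 (adjusted p = 0.0651), and on the unfiltered log2(FPKM + 1) scale it was 0.33 (0.111). Its coding sequence is 97.7% identical to that of SLC25A52, which had at most 3 counts a library, and a pseudogene is of similar likeness, so reads may have been shared.

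SLC25A32, a carrier of folate and FAD, was the most abundant of the group per length, with 36.9, 31.8 and 33.3 CPM in PBS and 37.7, 33.5 and 34.0 CPM in lactic acid. The groups overlapped (adjusted p = 0.644). SLC25A32 shares 11.1% of its exon bases with DCAF13 on the opposite strand, which had a mean of 2797.3 counts against 1281.2. It shares 69.7% with AC012213.5 on the same strand, which had a mean of 0.5 counts. SLC25A42, of coenzyme A, held 0.870 to 1.18 FPKM (log2 fold change −0.22, SE 0.141). SLC25A16, linked to coenzyme A, held 4.11 to 5.53 FPKM (0.12, SE 0.069), and SLC25A17, which sits in peroxisomes, 7.36 to 10.2 FPKM (−0.11, SE 0.0876).

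Of the pyrimidine nucleotide carriers, which supply the copying of mitochondrial DNA, SLC25A36 had 81.7, 80.0 and 78.7 CPM in PBS and 90.4, 94.2 and 86.5 CPM in lactic acid. It rose 1.13-fold without overlap (log2 fold change 0.17, SE 0.0399, adjusted p = 0.00533 by edgeR). SLC25A33 was also higher in every treated library, at 7.25 to 8.24 CPM against 5.69 to 7.19, and was not called (0.27, SE 0.117, adjusted p = 0.0912), except without the second PBS library (0.37, adjusted p = 0.0438). A pseudogene matches SLC25A33 at 99.3% over 959 bases, which leaves its count uncertain.

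The largest rise in the family was that of SLC25A45, a carrier grouped here among those whose substrate is not settled. Its counts were 105, 131 and 139 in PBS and 210, 254 and 205 in lactic acid, or 3.10, 3.89 and 3.50 CPM and 5.90, 5.97 and 5.47 CPM. The lowest treated library was well above the highest control library, and the rise was 1.65-fold (log2 fold change 0.72, SE 0.131, adjusted p = 0.00121 by edgeR). The gene lies at chr11:65375192-65383701 on the minus strand.

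The rest of that group was not called. SLC25A43, its most abundant member per length, had 48.2, 45.2 and 45.4 CPM in PBS and 46.6, 42.8 and 43 CPM in lactic acid, with overlap (adjusted p = 0.272). SLC25A35 held 4.99 to 6.28 FPKM (log2 fold change 0.02, SE 0.0973), and shares 33.2% of its exon bases with RANGRF on the opposite strand. SLC25A34, with 15 to 38 counts a library, and SLC25A53, with 15 to 28, had log2 fold changes of 0.51 (SE 0.373) and 0.43 (SE 0.311). A pseudogene matches SLC25A53 at 95.8% over 920 bases, which leaves its count uncertain.

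SLC25A46 lies in the outer membrane, where it takes part in the shape and fusion of mitochondria. It had 61.8, 59.0 and 58.5 CPM in PBS and 61.0, 62.4 and 61.3 CPM in lactic acid. The groups overlapped and no change was called (log2 fold change 0.04, SE 0.0355, adjusted p = 0.393).

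**Figure D3:**
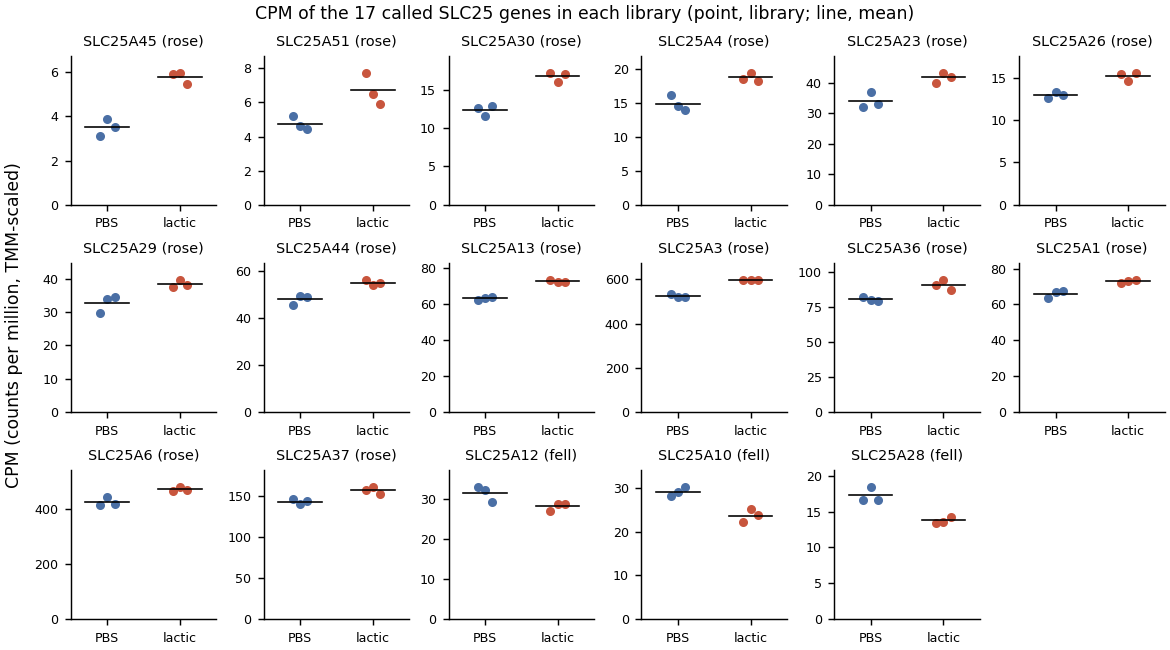
CPM of the 17 called SLC25 genes in each library, with PBS in blue, lactic acid in red, a black line at each mean and every axis starting at 0. Red points are all above blue in the 14 genes that rose and all below in SLC25A12, SLC25A10 and SLC25A28, and the steps are small beside the levels except in SLC25A45 and SLC25A51.

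Genes within a substrate group have related roles, so their counts were set against each other in each library, which needs no scaling between libraries. Of 22 pairs with a mean of at least 1 CPM in both genes, 11 had ratios that did not overlap between the groups. For the CPM of single genes, the groups were apart in 24.4% of all tested genes upward and 23.1% downward. No such share was worked out for ratios of other gene pairs, so the 11 pairs have no background of their own kind. The SLC25A1 to SLC25A10 ratio was 2.26, 2.29 and 2.23 in PBS and 3.22, 2.91 and 3.11 in lactic acid. Citrate carrier transcripts thus gained on those of the dicarboxylate carrier in every treated library.

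The SLC25A12 to SLC25A13 ratio was 0.528, 0.508 and 0.457 in PBS and 0.367, 0.397 and 0.397 in lactic acid. The SLC25A28 to SLC25A37 ratio went from 0.113, 0.132 and 0.116 to 0.0850, 0.0843 and 0.0929, and that of SLC25A5 to SLC25A6 from 0.912, 0.845 and 0.883 to 0.792, 0.760 and 0.756. In all 3 the gene named first lost ground to its partner. The exact two-sided permutation test gave p = 0.1 for each of the 11 pairs, the smallest that 3 libraries against 3 allow, and 0.2 after adjustment over the 22 pairs. Pairs that share a gene are not independent, and the ratios restate the calls above on a scale free of library size.

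**Figure D4:**
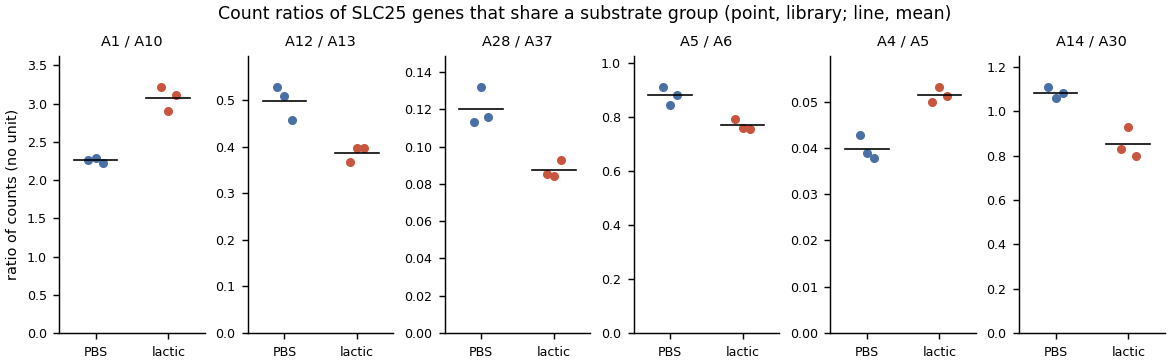
Ratios of counts, with no unit, for 6 pairs of SLC25 genes within a substrate group, by library, with PBS in blue, lactic acid in red and a line at each mean. In each pair the 3 lactic acid libraries lie wholly above or below the 3 PBS libraries, as for SLC25A1 over SLC25A10 at 2.91 to 3.22 against 2.23 to 2.29.

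The start regions of the carriers were read from RefSeq (GRCh38.p14), which had an entry of 250 bases before to 50 after the start for 40 of the 48 members. The E-box CACGTG, searched on both strands, was in 8 of the 40 (20.0%), against 7.43% of 27305 promoters of that length. The CCAAT box was in 47.5% against 35.7%, the GC box GGGCGG in 67.5% against 44.6%, and TATAAA in 7.5% against 12%. ACGTG, which the E-box contains, was in 30.0% against 21.6%, TGACGTCA in 5% against 1.98%, and TGATGCAA and the NRF1 core motif in 0.0% against 0.923% and 1.36%. These are matches of letters and not sites, and overlapping motifs are counted in each.

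The bases before the start are shown for the aspartate/glutamate carriers, a pair of 1 substrate that moved apart. Each is the longest stretch of the 250 bases that lies outside every GENCODE exon, and capitals mark the motifs named above other than the GC box.
SLC25A12: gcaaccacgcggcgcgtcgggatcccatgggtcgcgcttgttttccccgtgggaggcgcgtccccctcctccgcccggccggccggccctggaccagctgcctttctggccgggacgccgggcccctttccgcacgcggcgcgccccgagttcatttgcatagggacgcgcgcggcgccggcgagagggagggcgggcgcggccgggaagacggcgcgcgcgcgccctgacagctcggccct
SLC25A13: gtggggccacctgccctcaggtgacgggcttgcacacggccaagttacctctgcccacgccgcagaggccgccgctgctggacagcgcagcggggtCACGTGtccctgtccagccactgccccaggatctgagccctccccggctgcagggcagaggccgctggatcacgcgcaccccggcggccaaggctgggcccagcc
They lie at chr2:171894253-171894494 and chr7:96322148-96322348, both on the minus strand.

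The stretch of SLC25A13 holds an E-box, and that of SLC25A12 has no match in capitals. A CCAAT box also lies before the start of SLC25A13. The printed stretch is cut at an exon inside that box, so it is not in capitals here. Nothing about a factor follows from this.

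Outside the symbol SLC25, 5 genes encode proteins of the carrier fold. UCP2, an uncoupling protein, had 28.0, 28.9 and 26.6 CPM in PBS and 14.7, 15.1 and 14.9 CPM in lactic acid. It fell 1.87-fold without overlap (log2 fold change −0.90, SE 0.0616, adjusted p = 8.77e-07 by edgeR), farther than any SLC25 member that fell. MTCH2, an insertase of the outer membrane, rose from 95 to 100.5 CPM to 110.1 to 114.4 CPM (adjusted p = 0.00107), and MTCH1 fell from 121.2 to 125.6 CPM to 110.6 to 114.1 CPM (adjusted p = 0.0120). UCP3 stood at 1.48 to 1.81 CPM with overlap (adjusted p = 0.722), and UCP1 had at most 0.059 CPM.

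The machinery that imports carriers gave 2 rises and 2 falls among 13 tested genes, with a median log2 fold change of 0.04. Of all tested genes, 18.7% rose and 16.7% fell. TOMM20, a receptor of the outer membrane, rose 1.11-fold (adjusted p = 0.00523 by edgeR) and TIMM22, the channel of the carrier translocase, 1.10-fold (adjusted p = 0.0394). TOMM40, the outer channel, fell from 104.0 to 108.6 CPM to 81.6 to 90.6 CPM (log2 fold change −0.30, adjusted p = 0.00028), and AGK, a subunit of that translocase, fell by 0.13 on the log2 scale (adjusted p = 0.0384).

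Other mitochondrial channels and transporters gave 4 rises and 2 falls among 16 tested genes, with a median log2 fold change of 0.03. SFXN3, a sideroflexin, rose 1.23-fold (adjusted p = 6.92e-05 by edgeR) and VDAC2, a porin of the outer membrane, 1.12-fold (adjusted p = 0.00426). LETM1, a cation exchanger, and MCU, the calcium uniporter, fell with log2 fold changes of −0.18 and −0.13 (adjusted p = 0.00394 and 0.0230). Over all tested genes 18.7% rose and 16.7% fell.

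**Figure D5:**
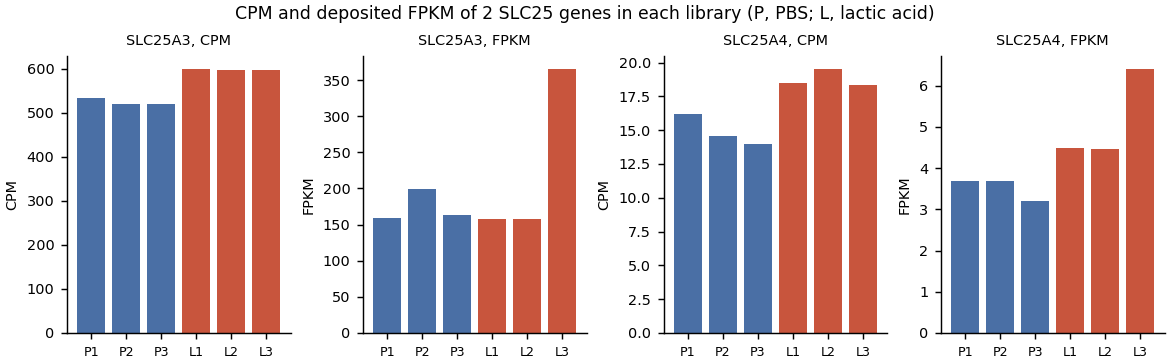
CPM and deposited FPKM of SLC25A3 and SLC25A4 in each library (P, PBS in blue; L, lactic acid in red), as bars from 0. The third lactic acid library stands at 364.9 FPKM for SLC25A3 and 6.40 FPKM for SLC25A4, above all other libraries, while its CPM of 597.7 and 18.3 lie with the other lactic acid libraries.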

How the data were processed

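RNA was extracted with TRIzol, poly(A) RNA was selected and read as 150-base pairs, per the labels' protocols. The authors deposited whole-number counts per gene and FPKM per gene (counts scaled for length and depth by the authors) for the same 6 libraries. The submitters' processing notes name HISAT2, StringTie, DESeq2 and GRCh38 with no role or version. For the annotation, the strand setting and multimapping, the answer is not given in the sources used here, so counts of near-identical or overlapping genes are uncertain. Control columns are named NS in the tables and WT in the labels, and were matched through the library names.

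Counts were tested two-sided with edgeR 4.0.16 (quasi-likelihood, R 4.3.3), with TMM factors, filterByExpr (minimum count 10, minimum total 15) and group as the only term. Adjustment was by Benjamini and Hochberg over all tested genes, with a threshold of 0.05. Each SE is the log2 fold change over the root of F. Count ratios were tested by exact permutation over libraries. The test was also run on simulated counts, in which far fewer genes changed than were called here. The outcome of that run is not used as support. Replicates differed by more than counting noise, so none was merged. All 19974 Ensembl identifiers matched GENCODE 29, and 3853 rows are unnamed loci, 1.17% to 1.25% of counts. Coding sequences were aligned in pairs from end to end with the global aligner of Biopython. BLAST 2.17.0 was used on whole transcripts to find near-identical copies, without the Y-chromosome entries of genes shared by X and Y.

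The members, lists, tests and alternatives were chosen with earlier results of these data known. By the rule for named genes, members are named with the exception of what is not reported here, values by library are given for up to 2 called genes per direction and for the most abundant gene of each substrate group, and up to 2 called genes per direction of each other list are named. Which marker genes are printed, which pairs are plotted and which promoters are shown was chosen after their values were seen. Alternatives were RLE factors, library totals, other count filters, DESeq2 1.42.0, limma 3.58.1 (voom on counts, trend on log2(FPKM + 1) or log2(FPKM + 0.1) with a floor of 1 FPKM in 3 libraries, and the first of these unfiltered), each library left out, the replicate number as a block, and Ensembl rows only.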

Additional observations from a re-analysis of the deposited data

How the results depend on the processing

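Of 716 values of tested members under 17 alternatives, 646 kept their direction and side of the threshold, 39 lost a call, 9 gained one and 22 changed sign, none of them in a called member. Of the 17 called members, 7 kept the call in every alternative. Members that rose numbered 12 to 13 and members that fell 2 to 3 with a library left out, beside 2362 to 2578 and 2141 to 2402 over all genes. The cause of each change below was not tested. With limma-trend on log2(FPKM + 1), log2(FPKM + 0.1) and the unfiltered log2(FPKM + 1), genes that rose numbered 1803, 1798 and 1618 over all genes and 9, 9 and 6 among members, over 12145, 12145 and 20539 genes tested. Members that fell were 5 with library totals and 5 and 5 on the filtered FPKM scales, beside 2939, 2533 and 2534 over all genes. Of uncalled members, SLC25A24 was −0.01, −0.01 and −0.01, SLC25A35 −0.02, −0.03 and −0.02, and SLC25A38 −0.04, −0.04 and −0.04 on those 3 scales. SLC25A35 was −0.0049 and SLC25A38 −0.0092 with library totals, and SLC25A27 −0.0022 with limma-voom. With a library left out, the log2 fold change ran from −0.02 to 0.16 for SLC25A20, −0.14 to 0.14 for SLC25A27, −0.01 to 0.10 for SLC25A32, −0.08 to 0.10 for SLC25A35, −0.03 to 0.04 for SLC25A38 and −0.08 to 0.72 for SLC25A41.

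Libraries of the same replicate number did not deviate together (correlations 0.0218, −0.0239 and 0.031), so the numbers were not taken as pairs. With the replicate block, 13 members rose and 2 fell (2886 and 2596 over all genes); SLC25A12 (adjusted p = 0.0504) and SLC25A26 (0.0541) were no longer called. Adding pseudogene or antisense counts to members was not run, since no row of the count table bears such a name. Depth limits SLC25A18, SLC25A34, SLC25A41 and SLC25A53, with 3 to 38 counts a library.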

Other observations

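The deposited FPKM and counts of SLC25A3 part in the third lactic acid library. The transcript length implied by the ratio of the 2 tables was 2632 to 3780 bases in the other 5 libraries and 1618 in that one. For SLC25A4 it was 3965 to 4454 bases in 5 libraries and 2820 in the same one. Members with few counts were left out of this comparison. Among the rest, SLC25A16 had the next largest spread, with its longest implied length 1.23 times its shortest. The same figure was 2.34 for SLC25A3 and 1.58 for SLC25A4. These genes were chosen after their values were seen, and which of the tables gives the better level in that library was not tested.

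The signature was searched as the letters P-x-[DE]-x-x-[KR] anywhere in the translated coding sequence. By that search, 27 of the 48 members hold exactly 3 matches, and SLC25A46, SLC25A51, SLC25A52 and SLC25A53 hold 0. Whether a match lies in a carrier module was not checked. The first match was at codon 5 in SLC25A23 and codon 4 in SLC25A27.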
